A study of Homo sapiens with 2 samples.

Results

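The 9 NRF2 target antioxidant genes described here are HMOX1, NQO1, GCLM, GCLC, TXNRD1, SRXN1, NFE2L2, KEAP1 and TXN, taken by symbol from a table of 29452 gene rows, and all 9 had a row. RNA sequencing was done on MDA-MB-231, an established human triple-negative breast cancer line. One library came from cells in which the kinase gene CDK14 was knocked down with a short hairpin RNA (CDK14-sh), and the other library is its scramble control. The labels name 1 hairpin and no second one. With 1 library a group, differences cannot be checked on replicates, so no p-values are given. In such bulk samples, fewer cells of a type and less RNA per cell cannot be told apart. Higher and lower are said of these 2 libraries alone.

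NRF2, encoded by NFE2L2, is a transcription factor that cells hold ready against oxidants and electrophiles. In unstressed cells KEAP1 binds NRF2 and hands it to a CUL3 ubiquitin ligase for degradation. When oxidants or electrophiles modify cysteines of KEAP1, NRF2 escapes, pairs with a small MAF protein and binds antioxidant response elements (AREs) in DNA near its target genes. The targets supply glutathione (GCLC and GCLM), keep thioredoxin and peroxiredoxins reduced (TXN, TXNRD1 and SRXN1), reduce quinones (NQO1) and break down heme (HMOX1). NRF2 is controlled largely through the stability of the protein, which RNA levels do not measure.

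The core of the ARE, TGACNNNGC, was searched on both strands of the RefSeq promoter windows (GRCh38.p14), which run from 250 bases before to 50 bases after a start site. The table gives 11 windows for 8 of the 9 genes. HMOX1 has no entry. The core occurred in 4 of the 11 windows, belonging to GCLM, TXNRD1 and KEAP1, against 13.3% of all 35116 windows. The stretches around the matches are shown because they are where the letters NRF2 is known to read lie closest to a start site, with each match in capitals and the strand of the gene read 5′ to 3′.
GCLM, chr1:93909431-93909489, minus strand: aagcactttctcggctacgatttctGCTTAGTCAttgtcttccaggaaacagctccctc
TXNRD1, first start site, chr12:104215655-104215713, plus strand: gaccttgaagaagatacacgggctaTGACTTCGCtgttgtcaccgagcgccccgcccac
TXNRD1, first start site, chr12:104215746-104215779, plus strand: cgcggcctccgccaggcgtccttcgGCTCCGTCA
TXNRD1, second start site, chr12:104286905-104286963, plus strand: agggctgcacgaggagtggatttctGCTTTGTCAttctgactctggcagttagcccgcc
KEAP1, chr19:10502772-10502850, minus strand: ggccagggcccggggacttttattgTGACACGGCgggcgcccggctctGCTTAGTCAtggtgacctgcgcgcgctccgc

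In GCLM the match began 34 bases before the start site. In TXNRD1 the matches began 99 and 8 bases before the first start site and 102 bases before the second, and in KEAP1 they began 54 and 31 bases before the start site shown. The same 9 letters, GCTTAGTCA, occurred in GCLM and in KEAP1. A match is a description of the sequence and not a measured binding site. The windows listed for NFE2L2, GCLC, TXN, NQO1 and SRXN1 hold no match, which says only that these letters are not in those windows. Among measured genes with a window, 19.5% held the core in at least 1 of their windows.

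The libraries held 15478156 reads with CDK14-sh and 17217564 with scramble, counted as assignments of reads to gene rows. CDK14 itself stood at 0.548 RPKM with CDK14-sh (58 reads) and 2.48 RPKM with scramble (292 reads). The CDK14-sh level is 22.1% of the control level (16.4% to 29.4%). RPKM divides the reads of a row by its exon length and by the library total, so it compares genes per length. Intervals here and below are exact 95% intervals from read counts, which cover counting error only. The markers of the line VIM, CD44, MSN and EGFR were present in both libraries but went apart, with MSN at 39.0%, VIM at 58.7%, EGFR at 85.9% and CD44 at 115.6% of the scramble level with CDK14-sh. Of the luminal epithelial markers, ESR1 (8 and 2 reads), PGR (0 and 3), CDH1 (0 and 2) and FOXA1 (9 and 3) were near 0 with CDK14-sh and with scramble, while ERBB2, GATA3 and EPCAM were between 2.33 and 5.46 RPKM. Of the markers of leukocytes, endothelium and fibroblasts, CD68 was high, at 126 RPKM with CDK14-sh and 128 RPKM with scramble, and the other measured ones were at 1.99 RPKM or less, with DCN and LUM at 0.

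The 9 genes spanned a wide range of levels and held much the same order in both libraries. TXN was 548 times the level of HMOX1 with CDK14-sh and 249 times with scramble, in RPKM. In CDK14-sh the order from the top was TXN, TXNRD1, NQO1, SRXN1, GCLM, NFE2L2, KEAP1, GCLC and HMOX1. In the scramble control SRXN1 stood below GCLM and NFE2L2, and the other genes kept their places. In CDK14-sh the counting intervals of SRXN1 and GCLM overlapped, as did those of GCLM and NFE2L2. In the scramble control those of GCLM and NFE2L2 overlapped, as did those of SRXN1 and KEAP1. Together the 9 genes took 0.116% of assigned reads with CDK14-sh and 0.112% with scramble.

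**Figure D1:**
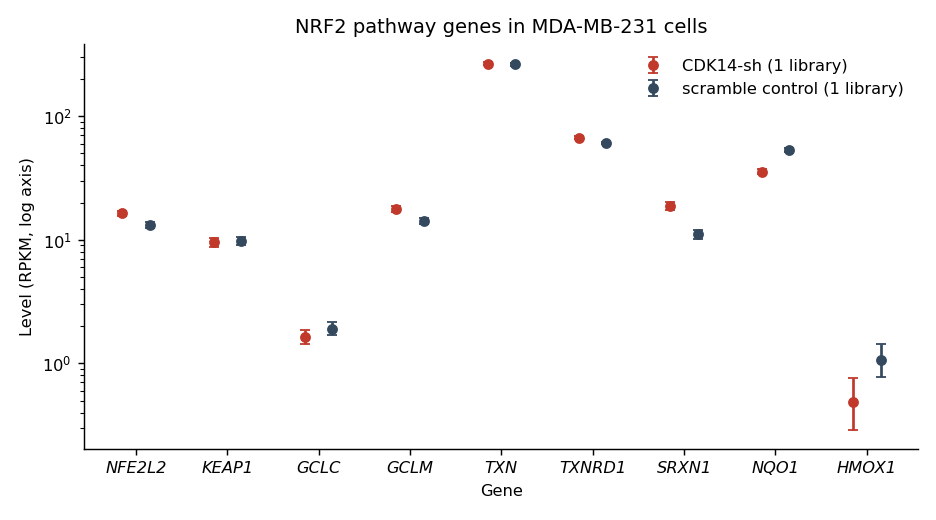
Level of each of the 9 genes in RPKM on a log axis, for CDK14-sh (red) and the scramble control (dark blue), 1 library each; bars are 95% counting intervals. TXN is near 265 RPKM in both libraries, while HMOX1 lies below 1.1 RPKM in both, and the libraries stand apart most visibly for SRXN1, NQO1 and HMOX1.

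The first question was whether the NRF2 genes as a group stood at other levels after CDK14 knockdown. None of the 9 reached a 2-fold difference in either direction on the scale used for counting, log2 of the RPKM ratio with 0.1 RPKM added to each level, and all 9 had at least 1 RPKM in the higher library. A 2-fold step was passed upwards by 3.21% and downwards by 3.47% of the 14878 genes that met this level. The median log2 ratio of the 9 genes was 0.0035 and that of all 14878 genes was 0.04. The genes did not move as a block: 5 of the 9 lay above 0 and 4 below, although TXN, TXNRD1 and KEAP1 changed sign with the scaling, as given further on. By counting error alone, the interval of the ratio lay above 1 for SRXN1, NFE2L2, GCLM and TXNRD1 and below 1 for NQO1 and HMOX1. It held 1 for TXN, KEAP1 and GCLC. With the smaller step of 1.5-fold, SRXN1 was higher and NQO1 and HMOX1 were lower, which is 1 and 2 of 9, against 9.11% and 9.55% of all genes. With so few genes these shares say nothing particular about the group. The calls also depended on the setting. NQO1, at a log2 ratio of -0.592, barely passed 1.5-fold. It fell short at -0.580 with 1 RPKM added and at -0.549 with mitochondrial reads left out. HMOX1 fell short at -0.475 with 1 RPKM added.

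**Figure D2:**
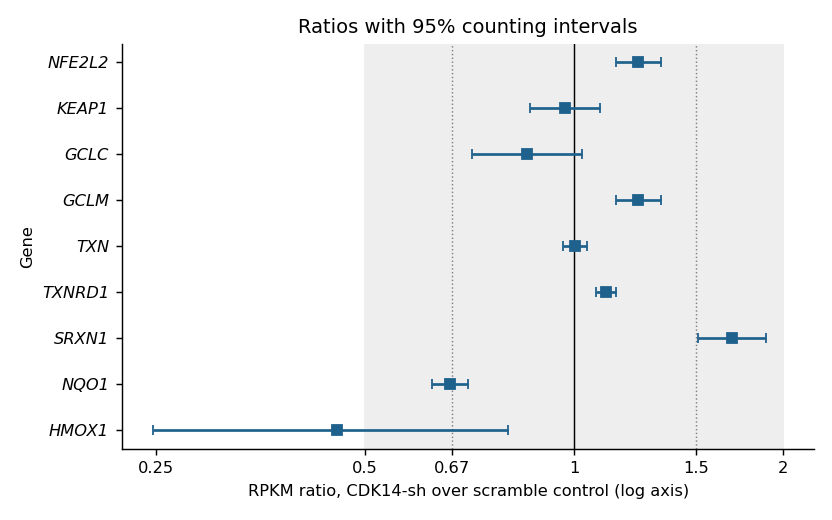
Ratio of RPKM with CDK14-sh over the scramble control on a log axis, with 95% counting intervals; the grey band runs from 2-fold lower to 2-fold higher and dotted lines mark 1.5-fold. SRXN1 lies highest at 1.69 and HMOX1 lowest at 0.455, and the interval of HMOX1 runs from 0.248 to 0.804.

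The sensor and the transcription factor differed little. NFE2L2 (chromosome 2, 177227595 to 177392697, minus strand) stood at 16.3 RPKM with CDK14-sh (1513 reads) and 13.2 RPKM with scramble (1360 reads), a ratio of 1.24 (1.15 to 1.33). KEAP1, the repressor (chromosome 19, 10486120 to 10503741, minus strand) stood at 9.53 RPKM with CDK14-sh (555 reads) and 9.82 RPKM with scramble (636 reads), a ratio of 0.971 (0.865 to 1.09). Transcripts of the activator were higher with CDK14-sh beyond counting error, while the interval of the repressor held 1. There were 0.583 KEAP1 RPKM per NFE2L2 RPKM with CDK14-sh and 0.743 with scramble, which is 1.27-fold lower (1.11 to 1.46). Such a ratio of 2 genes within a library does not depend on the library total. Of NFE2L2's 5979 exon bases, 20.9% are shared with 3 other rows, 2 of them on the opposite strand.

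Glutathione synthesis starts with glutamate-cysteine ligase, made of the catalytic subunit GCLC and the modifier subunit GCLM. GCLM (chromosome 1, 93885205 to 93909456, minus strand) stood at 17.7 RPKM with CDK14-sh (1484 reads) and 14.3 RPKM with scramble (1334 reads), a ratio of 1.24 (1.15 to 1.33). GCLC (chromosome 6, 53497341 to 53616970, minus strand) stood at 1.63 RPKM with CDK14-sh (214 reads) and 1.91 RPKM with scramble (278 reads), a ratio of 0.856 (0.713 to 1.03). In RPKM the modifier subunit was far more abundant than the catalytic one in both libraries, and the gap was wider with CDK14-sh. GCLM RPKM exceeded GCLC RPKM by 10.8 to 1 with CDK14-sh and by 7.49 to 1 with scramble, a 1.45-fold difference (1.19 to 1.76). The length used is the sum of all exons of a row, 5420 bases for GCLM and 8463 for GCLC. A single transcript can be shorter, so the size of the gap between the 2 genes depends on this length. The difference between the libraries does not.

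Thioredoxin, encoded by TXN, reduces disulfides in other proteins, and thioredoxin reductase 1, the selenoprotein encoded by TXNRD1, regenerates it with NADPH. TXN (chromosome 9, 110243811 to 110256640, minus strand) stood at 265.2 RPKM with CDK14-sh (4687 reads) and 264.5 RPKM with scramble (5201 reads), a ratio of 1.00 (0.963 to 1.04). TXN was the most abundant of the 9 genes, and 99.1% of measured genes had lower levels with CDK14-sh and 99.2% with scramble. TXNRD1 (chromosome 12, 104215779 to 104350305, plus strand) stood at 67.2 RPKM with CDK14-sh (6981 reads) and 60.6 RPKM with scramble (6995 reads), a ratio of 1.11 (1.07 to 1.15). On log2 with 0.1 RPKM added, TXNRD1 was at 0.15 and TXN at 0.0035, while in TPM, which rescales each library so that its length-corrected levels add up to the same total, they were at -0.0017 and -0.15. Relative to TXN, which needs no library total, TXNRD1 was 0.254 with CDK14-sh and 0.229 with scramble, a 1.11-fold difference (1.05 to 1.17).

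SRXN1 encodes sulfiredoxin, which repairs over-oxidised 2-cysteine peroxiredoxins, and it had the highest ratio of the 9 genes. SRXN1 (chromosome 20, 646615 to 653370, minus strand) stood at 18.7 RPKM with CDK14-sh (780 reads) and 11.1 RPKM with scramble (514 reads). The level with CDK14-sh was 1.69 times that with scramble (1.51 to 1.89), and 94.4% of measured genes had a lower log2 ratio. Of its 2698 exon bases, 85.0% are also exons of a row on the same strand, spanning 646626 to 675800, at 18.0 RPKM with CDK14-sh (758 reads) and 10.5 RPKM with scramble (490 reads). Reads of the 2 rows cannot be told apart in these exons, so the values stand for both transcripts together and the overlapping row is not a second observation.

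NQO1, a quinone reductase that is widely used as a readout of NRF2, was lower with CDK14-sh. Located on chromosome 16 (69706996 to 69726951, minus strand), it stood at 35.5 RPKM with CDK14-sh (1786 reads) and 53.5 RPKM with scramble (2997 reads), a ratio of 0.663 (0.625 to 0.703). Its ratio lay in the lower part of the distribution, with 9.4% of measured genes below it. An opposite-strand row, CTD-2033A16.1, lies wholly within NQO1 exons over 575 bases and stood at 23.9 RPKM with CDK14-sh and 42.3 RPKM with scramble. Its reads may be those of NQO1 counted again, so that row is not a second observation. SRXN1 and NQO1 differed in opposite directions. SRXN1 per NQO1 was 0.527 with CDK14-sh and 0.207 with scramble, a 2.55-fold difference (2.24 to 2.89). That pair was chosen after its values were seen.

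HMOX1, heme oxygenase 1, opens the heme ring and is regulated by the repressor BACH1 as well as by NRF2. Located on chromosome 22 (35380361 to 35394214, plus strand), it stood at 0.484 RPKM with CDK14-sh (18 reads) and 1.06 RPKM with scramble (44 reads). The plain ratio was 0.455 (0.248 to 0.804), and with 0.1 RPKM added the log2 ratio was -0.99, just short of 2-fold. HMOX1 was the scarcest of the 9 genes, and it met the level of 1 RPKM through the scramble library alone. Its interval is the widest of the 9, so the size of the difference is poorly fixed at this depth. It passed 2-fold with no constant added, in TPM and with the median of all genes set to 0.

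**Figure D3:**
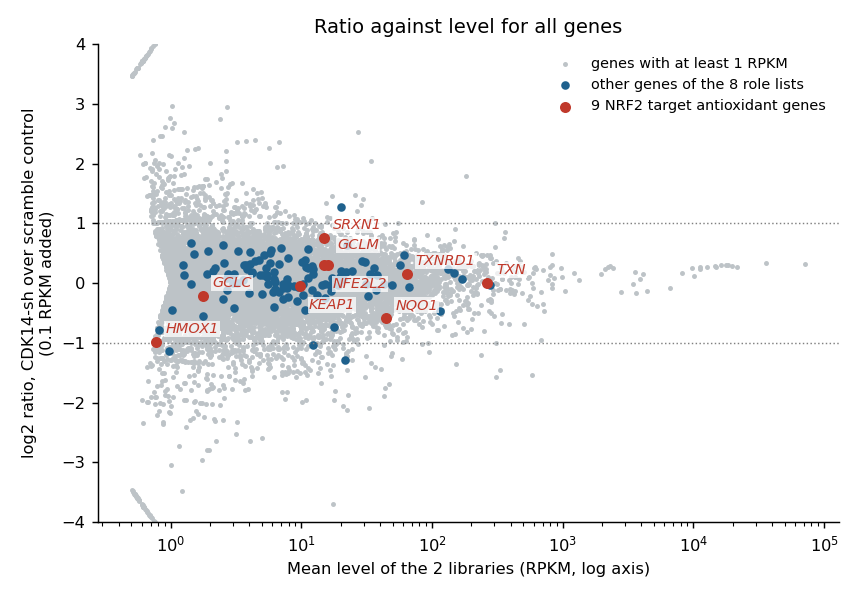
log2 ratio of CDK14-sh over the scramble control (0.1 RPKM added) against mean level on a log axis, for all genes with at least 1 RPKM (grey), the genes of the role lists (blue) and the 9 NRF2 target antioxidant genes (red); dotted lines mark 2-fold and 75 genes beyond a log2 ratio of 4 in size are not drawn. The scatter widens towards low levels, where HMOX1 lies, while SRXN1 and NQO1 lie at levels where it is narrower.

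The next question was whether genes that work with these 9 differed. Another 138 genes were listed by role in 8 lists, of which 135 had a row and 116 had at least 1 RPKM in the higher library. With CDK14-sh, 1 of these (0.862%) passed 2-fold upwards and 3 (2.59%) downwards, against the 3.21% and 3.47% of all genes given above. Their median log2 ratio was 0.10, with 69 above 0 and 47 below. At 1.5-fold, 4 were higher (3.45%) and 5 lower (4.31%), against 9.11% and 9.55% of all genes. The 1.5-fold shares were not taken over the backgrounds that follow, so these are not compared further. All 116 had at least 30 reads in the higher library, and the 13299 genes with as many passed 2-fold upwards in 1.25% and downwards in 2.18%. Of the 116, 115 are protein-coding rows, and over all 10417 such rows the shares were 1.05% and 2.17%. Against these more alike backgrounds the 2-fold shares of the lists were close to those of other genes.

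**Figure D4:**
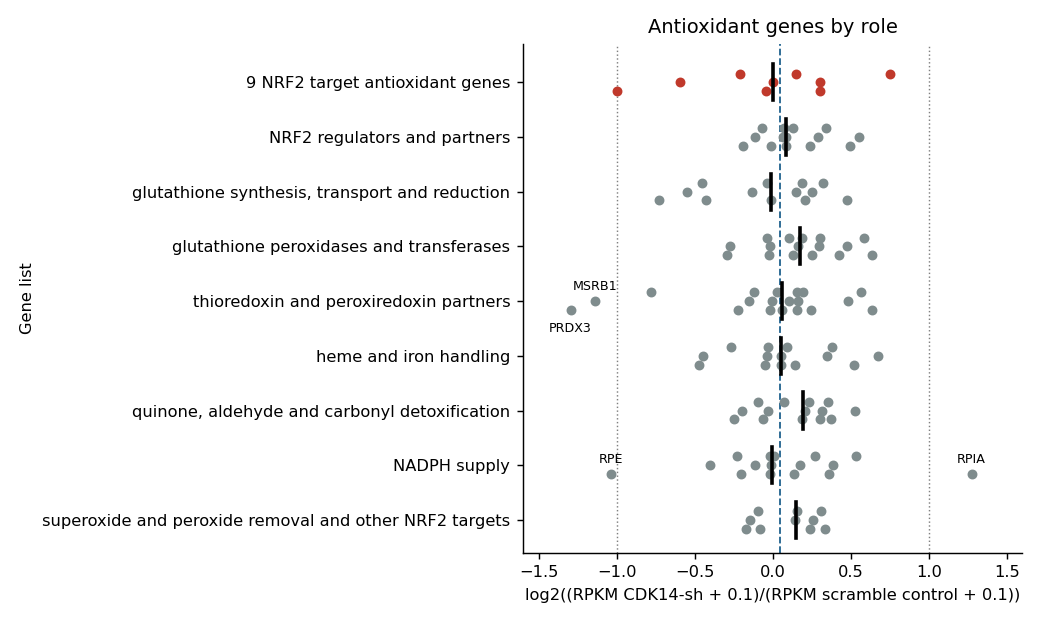
log2 ratio of CDK14-sh over the scramble control (0.1 RPKM added) for the 9 NRF2 target antioxidant genes (red) and for the measured genes of 8 role lists (grey), 1 point a gene; black bars are medians, the dashed line is the median of all genes and dotted lines mark 2-fold. Medians run from -0.01 to 0.20, and PRDX3, MSRB1, RPE and RPIA are the genes past 2-fold.

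Among 14 measured NRF2 regulators and partners, none passed 2-fold and the median log2 ratio was 0.09. The small MAF genes MAFK and MAFG, whose products pair with NRF2 on DNA, were at 6.38 and 13.3 RPKM with CDK14-sh and at 5.02 and 10.8 RPKM with scramble. BTRC, a ubiquitin ligase subunit that also targets NRF2, had a ratio of 1.42 (1.27 to 1.59). DPP3, which can bind KEAP1, had a ratio of 1.48 (1.28 to 1.71). BACH1, named here for its role at HMOX1 and outside the naming rule, was at 4.63 RPKM with CDK14-sh and 5.30 RPKM with scramble. The list ran from a log2 ratio of -0.19 for BACH1 to 0.56 for DPP3.

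Genes of glutathione synthesis, transport and reduction went both ways, with a median of -0.01 over 13 measured genes, and none passed 2-fold. SLC3A2, the heavy chain that carries the cystine transporter SLC7A11 to the membrane, was at 13.3 RPKM with CDK14-sh and 22.2 RPKM with scramble, 1.66-fold lower (1.54 to 1.79). SLC3A2 also serves other amino acid transporters. GLRX, encoding glutaredoxin 1, had a ratio of 0.667 (0.538 to 0.826) and GGT1, which cleaves glutathione outside the cell, 0.709 (0.501 to 0.996). GGT1 shares exons with SNRPD3 and met the level of 1 RPKM through the scramble library alone. GGCT, which acts in glutathione breakdown, was at 71.4 RPKM with CDK14-sh and 51.4 RPKM with scramble, a ratio of 1.39 (1.29 to 1.49).

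The glutathione peroxidases and transferases had a median of 0.17 over 16 measured genes, 11 above 0 and 5 below, and none passed 2-fold. The microsomal transferase genes MGST2 and MGST1 led the list, with ratios of 1.58 (1.23 to 2.05) and 1.51 (1.37 to 1.66). The cytosolic transferase genes GSTM3 and GSTP1 had ratios of 1.40 (1.21 to 1.61) and 1.35 (1.12 to 1.62). In TPM the median of all 8 lists together was -0.08, beside -0.11 for all genes, so small positive values here depend on the scale.

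Among list genes with at least 1 RPKM, those with the lowest log2 ratios, PRDX3 and MSRB1, were thioredoxin and peroxiredoxin partners. PRDX3, the peroxiredoxin of mitochondria, was at 12.5 RPKM with CDK14-sh (660 reads) and 30.8 RPKM with scramble (1810 reads), 2.47-fold lower (2.25 to 2.70). MSRB1, a selenoprotein that reduces methionine sulfoxide, was at 0.569 RPKM with CDK14-sh (19 reads) and 1.37 RPKM with scramble (51 reads), 2.41-fold lower (1.40 to 4.33). SESN3, encoding sestrin 3, was 1.85-fold lower (1.43 to 2.39). TXNIP, which binds and inhibits thioredoxin, was higher, at 27.1 RPKM with CDK14-sh and 17.4 RPKM with scramble, a ratio of 1.56 (1.44 to 1.68). MSRB1 and SESN3 met the level of 1 RPKM through the scramble library alone. The list had 19 measured genes, of which 2 were at least 2-fold lower and none higher, and a median of 0.06. Over all genes 3.21% passed 2-fold upwards and 3.47% downwards, and among those with at least 30 reads 1.25% and 2.18%. With so few genes the count of 2 says nothing particular about the list. PRDX3 shares no exon with another row.

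In heme and iron handling, 14 genes were measured, none passed 2-fold and the median was 0.05. BLVRA, which turns the product of HMOX1 into bilirubin, was at 9.05 RPKM with CDK14-sh and 12.4 RPKM with scramble. FTH1, the ferritin heavy chain, was at 96.8 RPKM with CDK14-sh (3041 reads) and 134 RPKM with scramble (4691 reads), 1.39-fold lower (1.32 to 1.45). SLC40A1, the iron exporter ferroportin, had a ratio of 1.65 (1.23 to 2.21). FECH, which inserts iron into protoporphyrin to form heme, had a ratio of 1.45 (1.23 to 1.72). FTL, the ferritin light chain, outside the naming rule and added after its values were seen, was at 275.4 RPKM with CDK14-sh and 282.9 RPKM with scramble, a ratio of 0.973 (0.931 to 1.02).

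Genes for the detoxification of quinones, aldehydes and carbonyls had a median of 0.20 over 14 measured genes, and none passed 1.5-fold in either direction. NQO2, a relative of NQO1, was at 5.03 RPKM with CDK14-sh and 3.85 RPKM with scramble, a ratio of 1.31 (1.18 to 1.44). This is the opposite direction to NQO1. ALDH1A3, an aldehyde dehydrogenase, had a ratio of 1.47 (1.19 to 1.82) and CYB5R3 1.28 (1.17 to 1.41). EPHX1, an epoxide hydrolase, had a ratio of 1.25 (0.9999 to 1.56), an interval that just holds 1.

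NADPH supplies the electrons for TXNRD1, NQO1 and glutathione reductase. The list named for its supply also holds genes that do not make NADPH, some of the pentose phosphate pathway among them. It had 16 measured genes and a median of -0.0018. It held 1 gene past 2-fold in each direction. Both of these act on ribulose 5-phosphate in the pentose phosphate pathway, in steps that do not themselves make NADPH. RPIA, which converts it to ribose 5-phosphate, was at 28.4 RPKM with CDK14-sh (813 reads) and 11.7 RPKM with scramble (372 reads), a ratio of 2.43 (2.15 to 2.76). RPE, which converts it to xylulose 5-phosphate, was at 8.05 RPKM with CDK14-sh (439 reads) and 16.6 RPKM with scramble (1006 reads), 2.06-fold lower (1.84 to 2.31). ME2, a mitochondrial malic enzyme, had a ratio of 1.46 (1.29 to 1.66), and its part in NADPH supply was not tested. RPE shares exons with KANSL1L, so part of its reads may belong to that gene, while RPIA shares none.

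Superoxide and peroxide removal and other NRF2 targets had a median of 0.15 over 10 measured genes, and none passed 1.5-fold. SOD1, the cytosolic superoxide dismutase, was at 143.6 RPKM with CDK14-sh and 121.7 RPKM with scramble, a ratio of 1.18 (1.13 to 1.23). PARK7, which encodes DJ-1, had a ratio of 1.24 (1.17 to 1.32), and TRIM16L a ratio of 1.27 (1.03 to 1.57). SOD3, the extracellular dismutase, had a ratio of 1.21 (0.864 to 1.68), an interval that holds 1. PANX2, a channel gene of this list that missed the level of 1 RPKM and is named after its values were seen, had 6 reads with CDK14-sh and 48 with scramble, a ratio of 0.139 (0.0486 to 0.325).

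An earlier look at these same ratios had picked 4 words of 7 bases in 3′ UTRs. Of the 9 genes, GCLM carried one (ATCCATA) in its longest annotated 3′ UTR, and the other 8 carried none, against 25.1% of 10394 measured protein-coding genes. GCLM was among the higher of the 9. NQO1 and HMOX1, the lower ones, carried none. PRDX3 carried TCATGCA, and MSRB1 and RPE each carried TCCATAA and its neighbour word ATCCATA, while RPIA carried none. Other named genes went both ways. Words occurred in higher genes (ME2, NQO2, GSTM3, MAFK and MAFG) and in lower ones (GLRX and SLC7A11). They were absent from lower genes (SLC3A2 and SESN3) and from higher ones (TXNIP and SLC40A1). The words were picked from these ratios, so which genes carry them is no independent observation.

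Under other scalings and added constants, SRXN1 had the highest log2 ratio wherever it had a value, and HMOX1 the lowest except with 1 RPKM added, where NQO1 was lowest. SRXN1 stayed above 0 and NQO1, HMOX1 and GCLC below 0 in each setting that gave them a value. The signs of the genes near 0 depended on the scale: TXN and TXNRD1 lay below 0 in TPM, TXN also with the median of all genes set to 0, and KEAP1 stood at 0.0006 with mitochondrial reads left out.

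**Figure D5:**
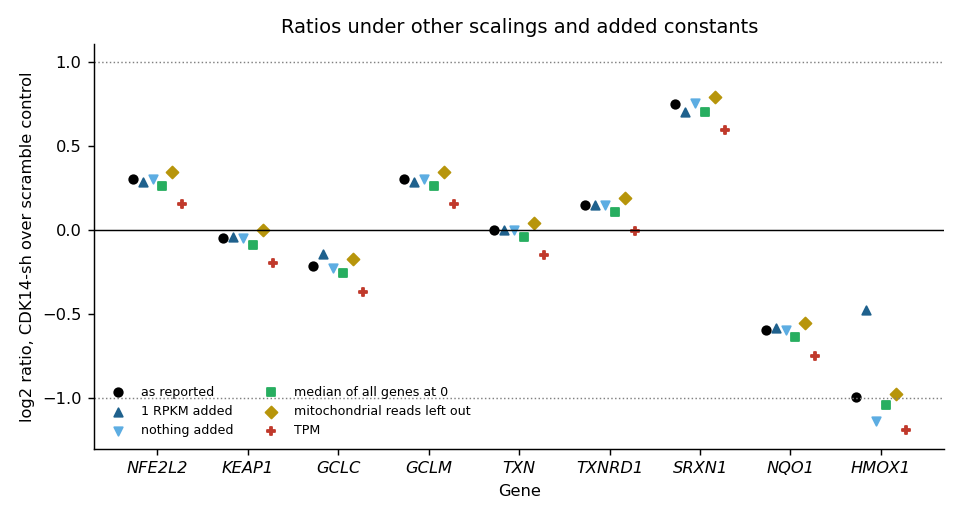
log2 ratio of CDK14-sh over the scramble control for each of the 9 genes as reported (black) and under 5 other scalings or added constants; dotted lines mark 2-fold. HMOX1 lies at -0.99 as reported and at -0.48 with 1 RPKM added, both within 2-fold, and beyond 2-fold at -1.14 with nothing added, -1.19 in TPM and -1.04 with the median of all genes at 0, while SRXN1 and NQO1 stay within 2-fold in every setting drawn.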

How the data were processed

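The values analysed are RPKM, which the authors deposited in 1 table beside exon positions and lengths. The builds GRCh38 and mm8, and the tools Subread 1.5.1, featureCounts and Bowtie 0.12.2, come from the submitters' processing notes, which give no roles. The labels name a stranded mRNA library kit, but how reads were counted is not given in the sources used here. The span of all 9 genes equals that of GENCODE v29, so coordinates are on GRCh38. Multiplied by length, 100% of nonzero values came out as whole reads (tolerance 0.01 read), which gave reads per row. Of rows wholly covered by exons of other rows, one of which held at least 1000 reads, 94 of 94 covered on the same strand and 86 of 86 covered on the opposite strand held reads. Reads in exons shared on the same strand were therefore counted in more than 1 row. Strand appears not to have separated reads, but rows covered on the opposite strand may also hold reads of their own. Among the 9 genes, shared exons touch SRXN1, NFE2L2, NQO1 and, over 7 bases, GCLC. Role-list genes named above that share exons are BACH1, MAFG, MAFK, DPP3, SLC7A11, GGT1, GGCT, GSTM3, MGST2, SESN3, FTH1, NQO2, ALDH1A3, EPHX1, TRIM16L and RPE. PCR copies are not independent molecules.

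For counts past a fold, 0.1 RPKM was added to both levels before the log2 ratio of CDK14-sh over scramble, which understates the change of low genes. Genes entered if either library reached 1 RPKM. Ratio intervals are Clopper-Pearson intervals of the split of reads, and intervals between pairs of genes are conditional odds ratio intervals. Of each role list, genes past 2-fold and up to 4 with the largest absolute log2 ratio and at least 30 reads were named. A gene of the NADPH supply list and a marker of the line are not reported here. The genes and lists were chosen with earlier results of these data known. Read recovery and intervals were tested on simulated data. Alternatives changed the constant, the level filter, the scale, the fold and the rows used. Software was scipy 1.17.1, matplotlib 3.10.9, pandas 2.3.3 and numpy 2.4.6 under Python 3.11.15.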

Additional observations from a re-analysis of the deposited data

How the results depend on the processing

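No paired analysis was possible because CDK14-sh and scramble have 1 library each. None of the 9 genes was at least 2-fold higher or lower as reported. HMOX1 alone, 1 gene, was at least 2-fold lower with no constant added, in TPM and with the median of all genes set to 0, and at 1.5-fold 1 was higher and 2 lower. Of the role lists, 1 was lower with 1 RPKM added, 5 were lower with no level filter, and 4 were higher and 5 lower at 1.5-fold. Over all genes, the counts past 2-fold, upwards then downwards, were 478 and 516 as reported, 176 and 259 with 1 RPKM added, 2173 and 2043 without a level filter, 83 and 177 from 5 RPKM up, 166 and 290 with at least 30 reads, 307 and 315 over rows sharing no exon, and 109 and 226 over protein-coding rows, an alternative chosen after seeing the data. At 1.5-fold they numbered 1355 and 1421, and in TPM 609 were higher and 1128 lower. The totals behind these counts differ. They were 14878 genes as reported, with 1 RPKM added and at 1.5-fold, 27836 without a level filter and 7933 from 5 RPKM up. With at least 30 reads they were 13299, over rows sharing no exon 6973, over protein-coding rows 10417 and in TPM 17068. These settings change the fold, the constant, the scale or which genes enter. In the 5 settings that can change a gene's ratio (the constant added and the scale), the 9 genes had 45 values, and 40 lay inside the reported counting interval. The other 5, of NQO1, GCLM, TXNRD1, NFE2L2 and TXN, left it in TPM, where the median of all genes was -0.11 in place of 0.04. At least 5 RPKM left out HMOX1 and GCLC, and rows sharing no exon left out NQO1, GCLC, SRXN1 and NFE2L2. Depth limits HMOX1 most, at 18 reads with CDK14-sh and 44 with scramble.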
